A study of Mus musculus with 16 samples.

Results

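The 47 genes described here encode ADAM, ADAMTS, ADAMTS-like, MMP and TIMP proteins, and they were taken from 13964 genes measured by RNA sequencing in embryonic mouse heart valves. A row was included when the mouse symbol matched to its Ensembl identifier was Adam, Adamts, Adamtsl, Mmp or Timp followed only by a number and an optional single letter. This gave 13 Adam, 16 Adamts, 5 Adamtsl, 10 Mmp and 3 Timp genes. All 47 passed the filter on low values, which asked for at least 1 normalised count in at least 4 libraries. The GENCODE M21 annotation holds 84 genes with such names, and the remaining ones, among them Timp4, Mmp9 and Mmp3, were not analysed here.

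Valves were taken by laser microdissection from C57BL/6 embryos at stage E14.5, when the leaflets of the outflow valves are still being shaped. Each valve was sampled from wild-type and from mutant embryos, which gives 4 groups of 4 libraries. The mutants, labelled Jag1flox;Nkx2.5-Cre, carry a floxed allele of the Notch ligand gene Jag1 together with a Cre recombinase whose expression follows the cardiac gene Nkx2-5. No Cre and no floxed allele is named for the controls, which are labelled WT, and the labels do not say how many floxed copies the mutants have. The comparison asks what losing Jag1 in Nkx2-5-expressing cells alters in each valve. All aortic libraries were made in a batch separate from all pulmonary libraries, so valve and library batch cannot be told apart. Within a valve, a wild-type and a mutant library that share a replicate number come from littermates, and the 5 litters include 3 that gave both valves. Whether some embryos gave both an aortic and a pulmonary library is not stated.

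ADAM proteins sit in the cell membrane and release the outer parts of other membrane proteins, whereas ADAMTS proteins are secreted and cut proteoglycans, procollagens and microfibril proteins. ADAMTS-like proteins have the binding domains of the ADAMTS family without the catalytic domain, MMPs degrade collagens and other matrix proteins, and TIMPs inhibit MMPs and several ADAM and ADAMTS enzymes. Growing valve cushions are rich in the proteoglycan versican (Vcan), whose cleavage by ADAMTS enzymes accompanies the thinning of cushions into leaflets, and ADAM10 makes the cut in Notch receptors that follows the binding of ligands such as Jag1.

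Values are normalised counts, that is read counts scaled by the authors with a factor per library, by a method the sources used here do not give. They were made from 4.56 to 8.68 M recovered reads (M, megareads) per library, and 3 reads correspond to 0.351 to 0.695 normalised counts. Where 4 values are listed, they belong to replicates 1 to 4. Log2 differences are mutant minus wild type on the log2(value + 1) scale from limma, with their standard error (SE), and p-values are adjusted over all 13963 tested genes unless stated otherwise. Means are given with the SD over the 4 libraries of a group. Jag1 itself was 20.2, 54.7, 39.7 and 18.8 in wild-type and 9.90, 11.4, 5.93 and 10.2 in mutant aortic valve. In the pulmonary valve it was 13.6, 19.2, 25.7 and 15.4 in wild-type and 12.4, 4.70, 3.78 and 1.85 in mutant libraries. Within each valve all mutant values of Jag1 were lower than all wild-type ones, although the mean difference over both valves (log2 -1.68, SE 0.32) had an adjusted limma p of 0.218. With DESeq2 on the recovered reads, Jag1 was among 5 genes with an adjusted p under 0.05 for that mean.

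The libraries differed from each other in markers of other tissues. The mean log2(value + 1) of the 19 measured skeletal muscle markers was 0.62 to 2.05 in 6 libraries, called muscle-low here (replicate 4 of every group and replicate 2 of wild-type aortic and of wild-type pulmonary valve), and 4.51 to 6.19 in the other 10. Tbx20, a transcription factor of the valve cushions, was 1032 to 1744 in the muscle-low libraries. Of the other 10, it was 98.0 to 123 in 5 libraries, called Tbx20-poor (wild-type aortic 1 and 3 and replicate 1 of each other group), and 549 to 976 in the remaining 5, called intermediate. Of the 19 markers, 17 were lower in all 6 muscle-low libraries than in any of the other 10. In the muscle-low libraries Chrnd was at 0 in all 6 and Myog and Pax7 in 5 of 6. Others, such as Tnni1 (18.9 to 38.1) and Casq1 (4.21 to 8.28), were detected in all 6. Casq1 overlapped the other 10 libraries (3.59 to 19.2).

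Other marker lists moved with these sets. Tbx20 is itself on the list of 7 valve mesenchyme markers, and the other 6, which include Vcan, summed to 6259 to 8234 normalised counts in muscle-low, 3238 to 5857 in intermediate and 916 to 1584 in Tbx20-poor libraries. The 10 endothelial markers summed to 1171 to 2309.6, 803 to 1203 and 265 to 384, and the 10 measured cardiomyocyte markers to 155 to 553, 938 to 3569 and 929 to 3224. No valve mesenchyme or endothelial marker was at 0 in any library. The share of reads from the mitochondrial ribosomal RNA mt-Rnr2 was at most 14.46% in muscle-low, 17.3% to 21.7% in intermediate and 18.9% to 26.1% in Tbx20-poor libraries. Wild-type aortic valve has 2 Tbx20-poor, 0 intermediate and 2 muscle-low libraries, mutant aortic and mutant pulmonary valve have 1, 2 and 1, and wild-type pulmonary valve has 1, 1 and 2. Replicate 1 is Tbx20-poor and replicate 4 muscle-low in all 4 groups, although replicate 1 comes from different litters in the 2 valves. In such bulk tissue, fewer cells of a type and less RNA per cell cannot be told apart. The sets are not groups of the study and are described without a test.

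Per kilobase of exon, which allows genes to be compared, Mmp2, the secreted gelatinase A, had the highest mean level of the 47 genes, at 52.3 ± 31.4 normalised counts per kb (SD, n = 16 libraries). Timp2, which inhibits MMP2 and also takes part in its activation, followed at 48.8 ± 16.1. Adam19, a membrane protease needed for heart valve and septum formation, was at 33.9 ± 18.5 and Timp3, a matrix-bound inhibitor, at 33.3 ± 16.2 on the same scale. The spread over libraries was wider than the gaps between these 4 genes. Timp1 at 25.998 ± 17.996, Mmp14 at 24.4 ± 14.3, Adam10 at 22.8 ± 9.24 and Adamts8 at 20.5 ± 22.6 completed the highest 8. With the longest transcript in place of merged exons as the length, the same 8 genes led, and Timp3 moved to the first place. At the other end, Adam1a and Adam33 were the lowest, at 0.183 ± 0.177 and 0.216 ± 0.202 normalised counts per kb, with no read in 3 and 5 of the 16 libraries. Mmp13, the only classical collagenase gene among the 47, had no read in 6 libraries and reached at most 4.09 normalised counts.

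**Figure D1:**
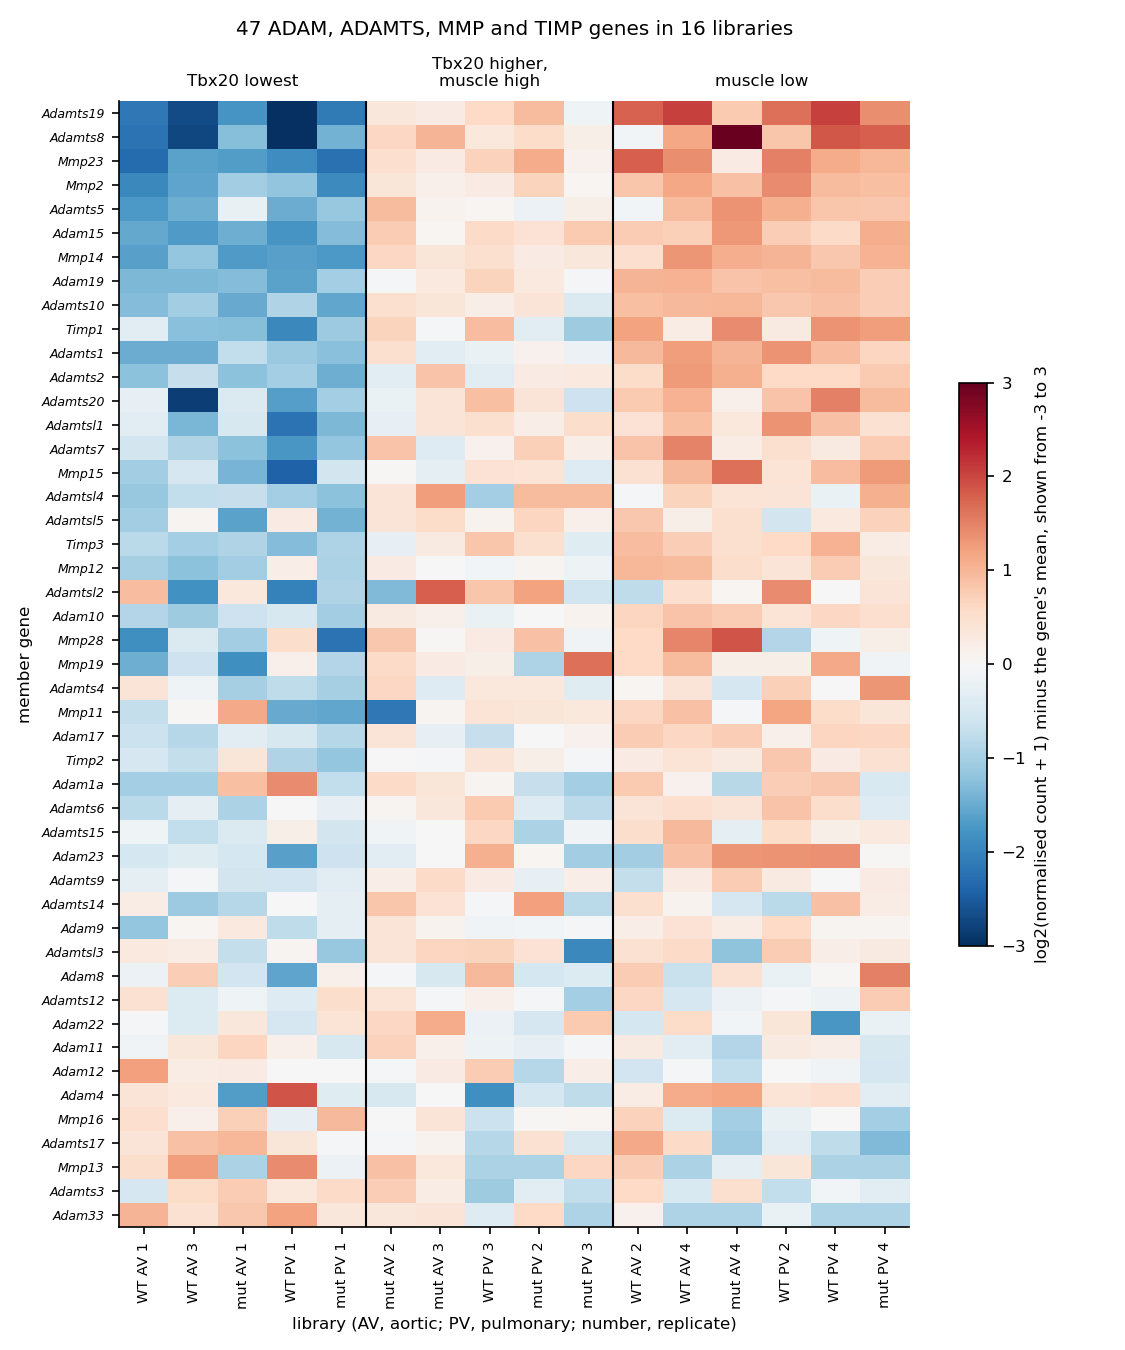
Each row is 1 of the 47 genes and each column 1 of the 16 libraries, grouped as Tbx20-poor (5), intermediate (5) and muscle-low (6). Colour gives log2(normalised count + 1) minus the gene's mean over the 16 libraries, shown from -3 to 3, and rows are ordered by the difference between the 11 other libraries and the 5 Tbx20-poor ones. Most rows are blue in the 5 Tbx20-poor columns and red in the muscle-low ones, while the rows at the bottom, such as Adamts3, Adam33 and Mmp13, run the other way or show no order.

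Most of these genes were lower in the Tbx20-poor libraries than in the others. For 38 of the 47 the median of the 11 other libraries exceeded that of the 5 Tbx20-poor ones (80.9%, against 48.9% of all tested genes), and the median of these differences was 1.12 on the log2 scale against -0.017 over all tested genes. In 16 of 47 (34%) all 11 other libraries lay above all 5 Tbx20-poor ones, as did 5.33% of all tested genes. These 16 are Adam10, Adam15, Adam19, Adamts1, Adamts2, Adamts5, Adamts7, Adamts8, Adamts10, Adamts19, Adamtsl1, Mmp2, Mmp14, Mmp15, Mmp23 and Timp3. In 0 of 47 did all 11 lie below, as 1.47% of all genes did. Comparing the 6 muscle-low libraries with the other 10, the 6 genes Adam10, Adam19, Adamts1, Adamts10, Mmp2 and Mmp12 (12.8%) lay above without overlap, against 2.6% of all tested genes, and 0 lay below, against 3.68%. By family, the median difference between the 11 other and the 5 Tbx20-poor libraries was 0.41 for Adam, 1.35 for Adamts, 1.44 for Adamtsl, 1.32 for Mmp and 1.42 for Timp genes.

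**Figure D2:**
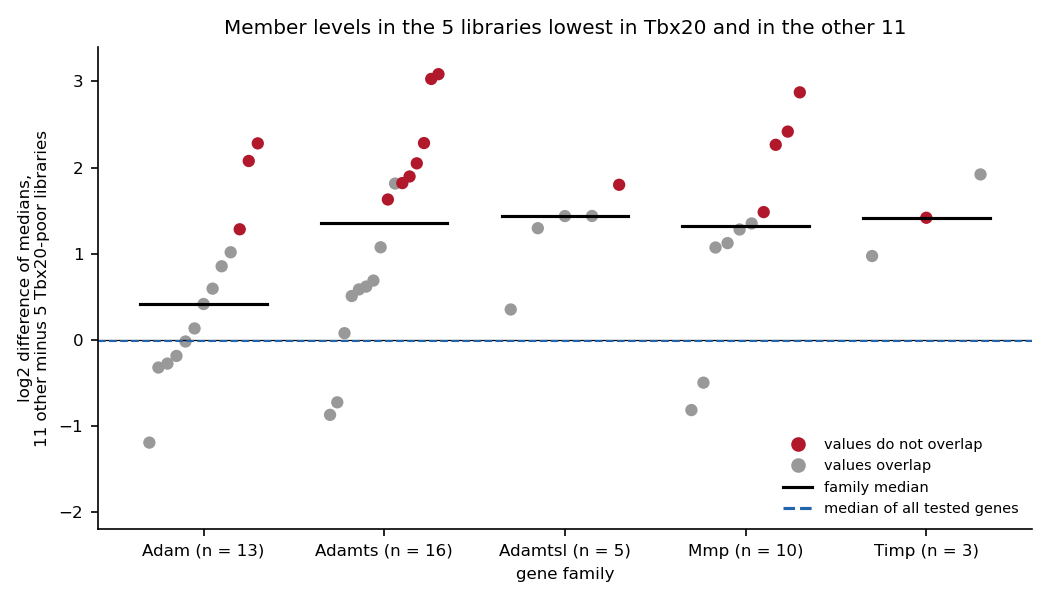
Each point is 1 gene, and the vertical axis is the log2 difference of the median value + 1 in the 11 other libraries minus that in the 5 Tbx20-poor libraries. Red points mark the 16 genes whose values do not overlap between these libraries, black bars the family medians (0.41 for Adam to 1.44 for Adamtsl), and the dashed line the median of all tested genes (-0.017).

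The 4 versican-cleaving genes, Adamts1, Adamts5, Adamts9 and Adamts15, encode secreted proteases that cut versican within its glycosaminoglycan-bearing region. Of the 4, 3 were above 0 in the aortic contrast and 0 in the pulmonary one, none past the threshold, with medians of 0.37 and -0.30. Per kb, Adamts1 (19.1 ± 11.8) and Adamts5 (10.03 ± 5.86) were higher than Adamts9 (2.50 ± 0.734) and Adamts15 (1.79 ± 0.691). Adamts1 and Adamts5 are neighbours on chromosome 16 of GRCm38, on the minus strand at chr16:85793827-85803113 and chr16:85856173-85901828, with a gap of 53.1 kb. Adamts15 (chr9:30899155-30922452, minus strand) lies 20.1 kb from Adamts8 (chr9:30942562-30963838, plus strand) in divergent orientation, and Adamts9 is at chr6:92772699-92943492 on the minus strand.

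Adamts1 was 28.9, 162, 28.7 and 199 in wild-type and 49.1, 116, 66.5 and 167 in mutant aortic libraries. Pulmonary values were 37.4, 209.7, 71.1 and 159 in wild-type and 33.8, 89.8, 73.1 and 128 in mutant libraries. Within every group replicate 1 was at 49.1 or less, and the muscle-low libraries were the highest. Genotypes overlapped in both valves: the aortic difference was log2 0.30 (SE 0.67) and the pulmonary one log2 -0.40 (SE 0.67) (limma, adjusted p = 1.00 each).

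Adamts5 was 26.3, 83.5, 31.4 and 174 in wild-type and 75.9, 173, 94.98 and 227 in mutant aortic libraries, higher in the mutant of all 4 litter pairs. Pulmonary libraries of the same groups had 31.2, 187, 92.9 and 160.3 (wild type) and 40.2, 78.1, 100.2 and 157 (mutants), higher in the mutant in 2 pairs of 4. The aortic difference was log2 1.12 (SE 0.62) (limma, unadjusted p = 0.0878, adjusted p = 1.00), and the values of the genotypes overlapped. It was the lowest unadjusted p among the 47 genes in that valve. The size of the difference depended on the libraries used: it was 0.36 (SE 0.42) without the 5 Tbx20-poor libraries, 0.91 (SE 0.36) in the 6 muscle-low and 1.87 (SE 0.49) in the other 10 libraries. In those 10 the wild-type aortic libraries are all Tbx20-poor and 2 mutant aortic ones are intermediate, so genotype and library set move together there. With litter as a replicate block the aortic difference was 1.12 (SE 0.33; limma, unadjusted p = 0.0039, adjusted p = 1.00). The pulmonary minus aortic difference of the genotype effect was log2 -1.32 (SE 0.87) (limma, unadjusted p = 0.149, adjusted p = 1.00). With the block its SE was 0.47 (limma, unadjusted p = 0.0124, adjusted p = 1.00).

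Adamts9, which also serves in the primary cilium and is needed for heart development, varied least of the 4 over all libraries, from 21.8 to 61.4. Its aortic means were 32.4 ± 8.81 for wild type and 45.6 ± 16.3 for mutants (n = 4 each; log2 0.44, SE 0.30), and its pulmonary means 36.7 ± 9.15 and 35.7 ± 7.55 (log2 -0.027, SE 0.30). Adamts15 had lower means in mutants of both valves, 21.6 ± 11.1 for wild type against 15.02 ± 2.20 for mutants among aortic libraries and 23.1 ± 4.06 against 14.3 ± 5.58 among pulmonary ones. The single aortic values were 15.8, 25.4, 10.1 and 35.3 for wild type and 12.499, 15.98, 17.5 and 14.1 for mutants. The pulmonary values were 19.6, 25.9, 27.3 and 19.7 for wild type and 11.5, 8.59, 15.96 and 21.4 for mutants, so the genotypes overlapped in each valve. The mean difference over both valves was log2 -0.54 (SE 0.25), and the mutant was the lower in 6 of 8 litter pairs (limma, unadjusted p = 0.0471, adjusted p = 1.00). The 8 pairs come from 5 litters, so they are not all independent. With litter as a replicate block the SE was 0.26 (limma, unadjusted p = 0.0519). Adamts9 and Adamts15 did not separate the library sets as Adamts1 did: Adamts9 was 24.1 to 34.8 in Tbx20-poor and 21.8 to 61.4 in muscle-low libraries, and Adamts15 10.1 to 19.6 and 14.1 to 35.3.

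Vcan, the substrate, was 576, 4628, 355 and 4139 in wild-type and 719, 1942, 1864 and 3635 in mutant aortic libraries. It was 632, 3290.5, 3281 and 4491 in wild-type and 449, 2399, 1678 and 3464 in mutant libraries of the pulmonary valve, where the mutant was the lower in each of the 4 pairs. The pulmonary difference (log2 -0.57, SE 0.85) was within the spread between replicates (limma, adjusted p = 1.00). Summed, Adamts1 and Adamts5 were 0.0960 to 0.174 of the Vcan value in Tbx20-poor, 0.04999 to 0.149 in intermediate and 0.0531 to 0.1204 in muscle-low libraries. The medians were 0.165, 0.0866 and 0.0862, and 3 of the 5 Tbx20-poor libraries exceeded all 11 others.

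**Figure D3:**
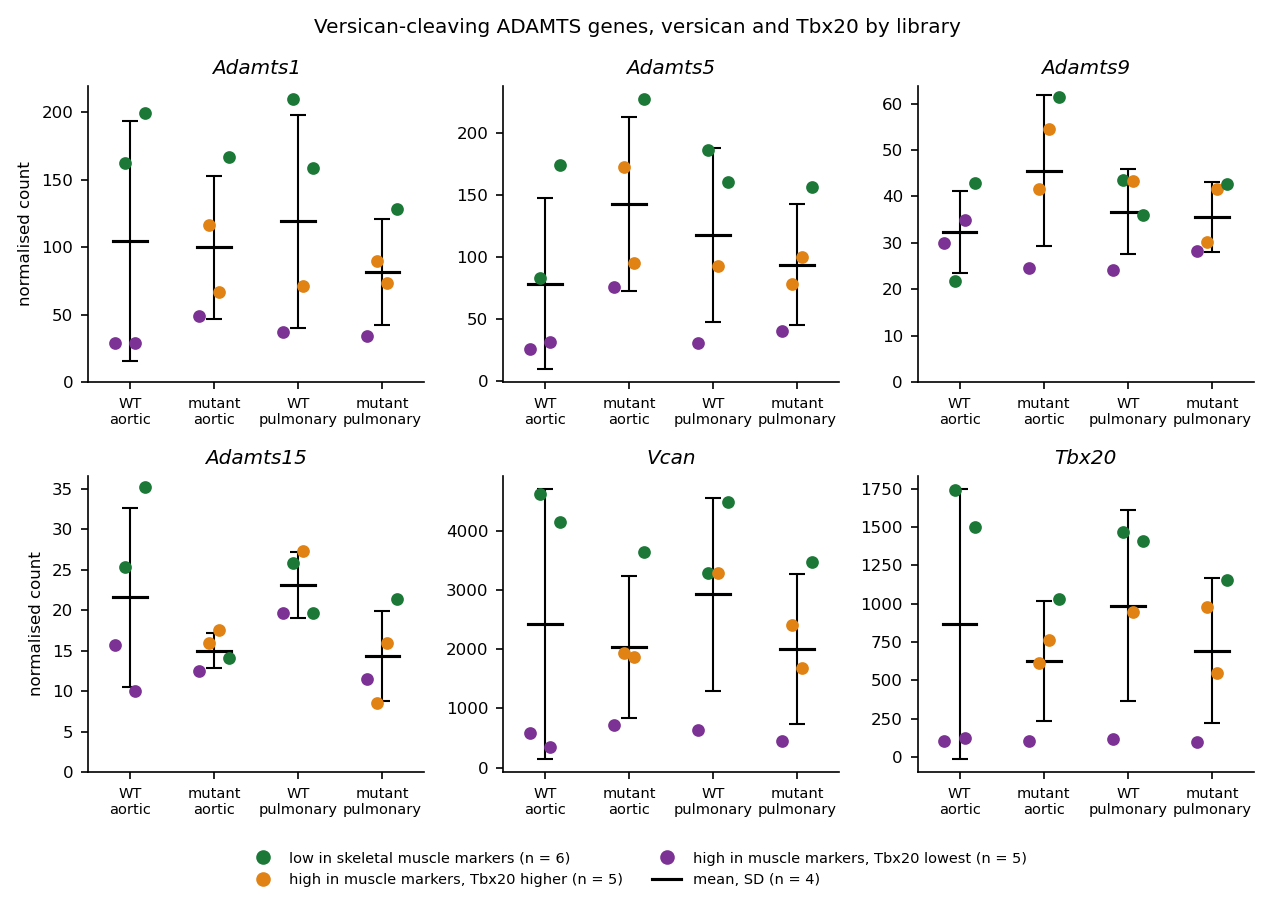
Normalised count (vertical axes, starting near or at 0) of Adamts1, Adamts5, Adamts9, Adamts15, Vcan and Tbx20 in the 4 groups, with each point 1 library coloured by library set and bars for the mean and SD (n = 4). For Adamts1, Adamts5, Vcan and Tbx20 the Tbx20-poor libraries are at the bottom of each group, whereas Adamts9 and Adamts15 mix the sets.

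To show the sequence around 3 of these genes, the 250 bases upstream of the RefSeq start (GRCm38.p6) are printed 5′ to 3′ on the gene's strand, with matches to the GC box GGGCGG, on either strand, in capitals. For Adamts1 (chr16:85803114-85803363, minus strand) and Mmp14 (chr14:54431348-54431597, plus strand) every Tbx20-poor library lay below all other libraries. For Adamts9 (chr6:92943535-92943784, minus strand) the values overlapped, with medians of 28.2 in Tbx20-poor and 42.7 in the other libraries.
Adamts1: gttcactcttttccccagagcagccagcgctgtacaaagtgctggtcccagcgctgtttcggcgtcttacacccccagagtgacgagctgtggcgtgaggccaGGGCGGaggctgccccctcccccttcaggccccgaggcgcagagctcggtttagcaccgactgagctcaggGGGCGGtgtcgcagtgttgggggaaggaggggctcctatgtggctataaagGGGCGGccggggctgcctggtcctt
Adamts9: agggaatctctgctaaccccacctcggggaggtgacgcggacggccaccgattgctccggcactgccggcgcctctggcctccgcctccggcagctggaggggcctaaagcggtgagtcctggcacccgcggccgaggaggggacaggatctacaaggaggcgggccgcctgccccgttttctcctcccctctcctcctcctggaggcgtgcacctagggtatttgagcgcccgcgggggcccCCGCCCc
Mmp14: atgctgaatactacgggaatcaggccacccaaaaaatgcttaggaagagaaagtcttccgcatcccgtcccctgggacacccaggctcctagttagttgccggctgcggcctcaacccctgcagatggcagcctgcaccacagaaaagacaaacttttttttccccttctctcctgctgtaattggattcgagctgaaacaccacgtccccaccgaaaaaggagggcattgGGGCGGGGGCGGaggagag
Such upstream sequences were found for 30 of the 47 genes, and a gene was counted when any of its entries held the motif. GGGCGG was present in 21 of these 30 and in 35.4% of the 27025 genes of the RefSeq table. TGGGAA, the core recognised by the Notch pathway factor CSL, was present in 7 of 30 and in 24.1% of all. The AP-1 motif TGANTCA was present in 3 of 30 (Adam19, Mmp12 and Mmp13) and in 7.82% of all, or in 1 of 30 and 6.87% with only the first entry of each gene. The T-box core AGGTGT was present in 1 of 30 and 13.6%, and TATAAA in 3 of 30 and 14.3%. The RefSeq table also holds genes that were not measured in these libraries, whereas all 47 passed the filter on low values. The shares over the 13963 tested genes were not counted, so these percentages are not a like comparison. Both strands were searched, and a match is a description of the letters, not of binding.

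Among the other proteoglycan-cleaving ADAMTS genes, Adamts8 showed the widest range of all members with reads in every library, from 3.58 to 419 normalised counts. It was 10.6, 49.2, 7.11 and 119 in wild-type and 20.9, 81.3, 107 and 419 in mutant aortic libraries, higher in the mutant of all 4 litter pairs. Pulmonary values were 3.58, 93.6, 65.8 and 192 for wild type and 19.1, 77.3, 59.1 and 186 for mutants, higher in the mutant in 1 pair of 4. The aortic difference was log2 1.79 (SE 1.11) (limma, unadjusted p = 0.126, adjusted p = 1.00) and the genotypes overlapped. Mutant aortic library 4, at 419, was the highest of all 16, and leaving out each library in turn gave 1.08 to 2.50. Without the 5 Tbx20-poor libraries the aortic difference was 1.00 (SE 0.66; limma, unadjusted p = 0.149, adjusted p = 0.941). Aortic pair 3 joins a Tbx20-poor wild-type and an intermediate mutant library. With litter as a replicate block the difference was 1.79 (SE 0.63; limma, unadjusted p = 0.0117, adjusted p = 1.00). In the 6 muscle-low libraries, which hold 1 mutant and 2 wild-type aortic libraries and where the lone mutant library is taken to vary like the others, it was 2.44 (SE 0.48; limma, adjusted p = 0.244), the smallest adjusted p of any of these genes in any setting. Some 10.6% of the Adamts8 exon bases overlap the antisense gene Gm29724, and the sources used here do not give the strand setting of the counting. Adamts4, an aggrecan-cleaving enzyme, ranged from 1.73 to 12.7 and Adamts20 from 1.19 to 43.1, with genotype differences within the replicate spread.

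The procollagen N-proteinase genes Adamts2, Adamts3 and Adamts14, whose products trim fibrillar procollagens, had differences above 0 in both valves, none past the threshold, with medians of 0.12 and 0.087. Adamts3 was 5.57, 13.2, 12.6 and 5.79 in wild-type and 14.9, 14.6, 9.84 and 11.9 in mutant aortic libraries. Its pulmonary values were 10.6, 4.54, 3.47 and 7.83 for wild type and 12.98, 6.31, 4.62 and 6.42 for mutants, and the groups overlapped. Averaged over genotypes, the pulmonary minus aortic difference was log2 -0.60 (SE 0.29) (limma, unadjusted p = 0.0539, adjusted p = 1.00). Adamts2 was 8.07 to 14.4 in Tbx20-poor and 35.2 to 59.1 in muscle-low libraries.

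The products of Adamts6 and Adamts10 act on fibrillin microfibrils. Adamts6 was 19.3, 35.1, 33.4 and 27.9 in wild-type and 15.9, 14.2, 10.6 and 14.3 in mutant pulmonary libraries, so every mutant value lay below every wild-type value and below the wild type of its own litter. Aortic values were 10.5, 25.2, 15.3 and 27.2 for wild type and 9.41, 20.05, 24.3 and 25.2 for mutants, with overlap. The pulmonary difference was log2 -0.996 (SE 0.35) (95% interval -1.74 to -0.25; limma, unadjusted p = 0.0121, adjusted p = 1.00), and the aortic one log2 0.019 (SE 0.35). The pulmonary minus aortic difference of these was log2 -1.02 (SE 0.50) (limma, unadjusted p = 0.0587, adjusted p = 1.00). Without the Tbx20-poor libraries the pulmonary difference was -1.24 (SE 0.28; limma, unadjusted p = 0.000586, adjusted p = 0.860). Without them, wild-type pulmonary valve keeps 2 muscle-low and 1 intermediate library, and mutant pulmonary valve 1 and 2. The Adamts6 median was 20.05 in intermediate and 26.2 in muscle-low libraries, so genotype and library set move together there. The pulmonary difference was -1.08 in the 6 muscle-low libraries, which include 1 mutant and 2 wild-type pulmonary ones. Spread between mutants is not measured in that fit. The difference was -0.87 in the other 10 libraries, and -0.92 with the muscle marker mean as a covariate. Adamts10 was also the lower in the mutant of all 4 pulmonary pairs (log2 -0.46, SE 0.65; limma, adjusted p = 1.00), with overlap between the genotypes. It lay at 15.3 to 24.7 in Tbx20-poor, 34.7 to 65.5 in intermediate and 79.5 to 94.6 in muscle-low libraries, with no overlap between any of the 3 sets. Besides these and Adam1a, Mmp2, Mmp11, Mmp12 and Mmp23 were lower in the mutant of all 4 pulmonary pairs, and Adamts7 was higher in all 4. In the aortic valve Adam23, Adamts5, Adamts8 and Mmp28 were higher in all 4. The share of all tested genes with the same direction in every pair was not counted. Pulmonary pair 2 and aortic pairs 2 and 3 each join libraries of different sets, so genotype and library set move together in them.

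Adamts19, which has been linked to inherited heart valve disease, had the largest difference of medians between the 11 other and the 5 Tbx20-poor libraries (log2 3.08), followed by Adamts8 (3.03) and Mmp23 (2.87). It was 7.85 to 19.8 in Tbx20-poor, 64.4 to 136 in intermediate and 121 to 296 in muscle-low libraries. By group it was 15.2, 242, 10.1 and 296 in wild-type and 19.8, 88.7, 83.5 and 121 in mutant aortic libraries. The pulmonary libraries had 7.85, 223, 107 and 292 (wild type) and 15.3, 136, 64.4 and 185 (mutants). Over all 16 libraries the mean difference over both valves was log2 -0.078 (SE 0.83), and the mutant was the lower in 5 of 8 litter pairs. Without the 5 Tbx20-poor libraries it was -1.08 (SE 0.29; limma, unadjusted p = 0.00208, adjusted p = 0.431). Of those 11 libraries both wild-type aortic ones are muscle-low and 2 of the 3 mutant aortic ones are not, so the genotype and the library set move together there. In replicate 4, where all libraries are muscle-low, the mutant was lower in both valves, at 121 against 296 and 185 against 292. Using the 10 libraries high in muscle markers alone, the aortic difference had the opposite sign, 2.01 (SE 1.00). There the wild-type aortic libraries are all Tbx20-poor and 2 mutant aortic ones are intermediate, so genotype and library set again move together.

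Adamts17, the closest relative of Adamts19, did not share this pattern, with 8.18 to 17.6 in Tbx20-poor and 2.72 to 19.4 in muscle-low libraries. Aortic means were 14.96 ± 3.60 for wild type and 9.55 ± 5.89 for mutants, and pulmonary means 6.55 ± 3.18 and 7.11 ± 3.85 (n = 4 each). Averaged over genotypes, pulmonary libraries were lower than aortic ones by a difference of log2 -0.74 (SE 0.33) (limma, unadjusted p = 0.0388, adjusted p = 1.00), the lowest unadjusted p among the 47 genes for that contrast. Adamts7 and Adamts12, which cut cartilage oligomeric matrix protein, also differed: Adamts7 was 2.22 to 6.38 in Tbx20-poor and 11.5 to 29.3 in muscle-low libraries, and Adamts12 10.5 to 20.8 and 9.65 to 24.8.

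**Figure D4:**
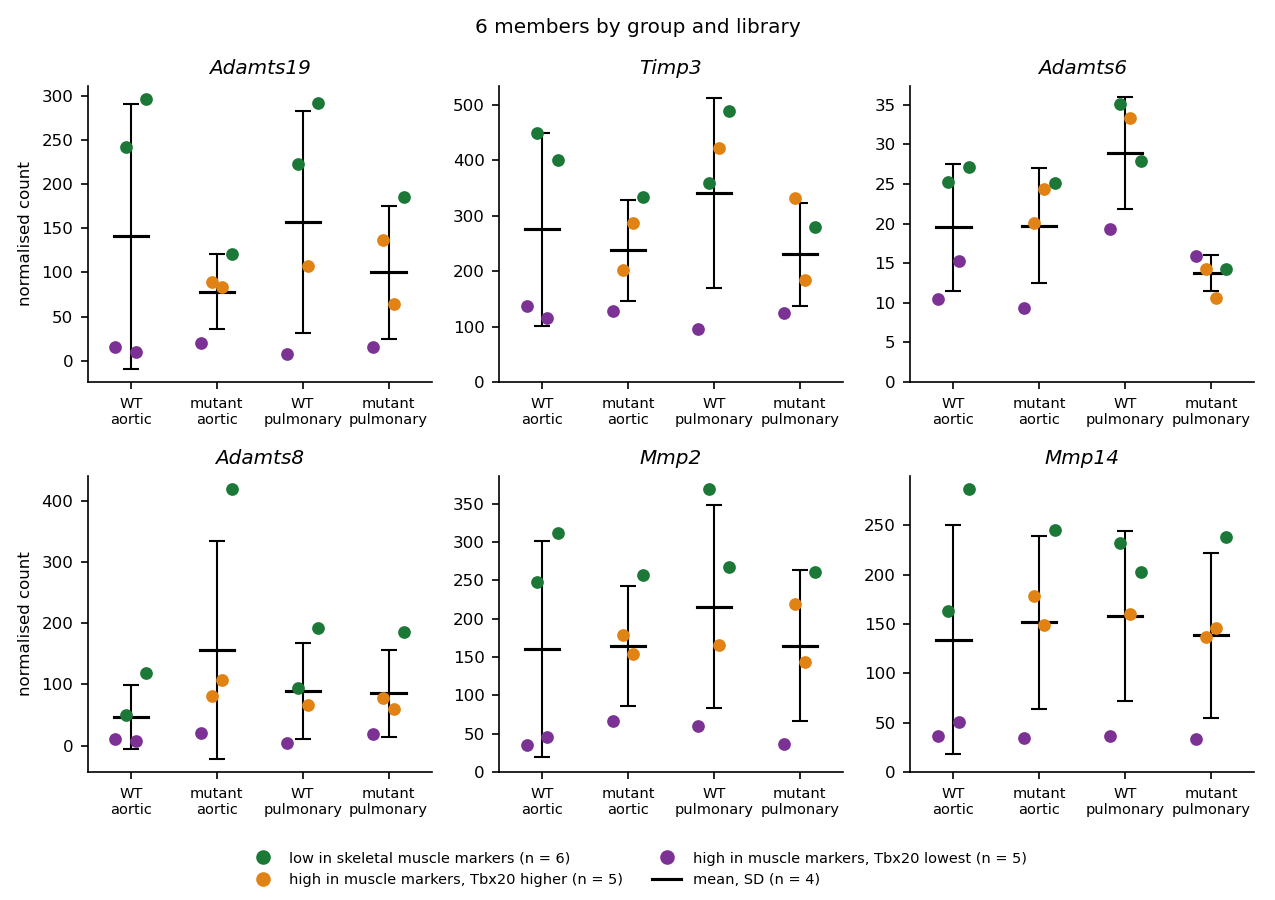
Normalised count of Adamts19, Timp3, Adamts6, Adamts8, Mmp2 and Mmp14 in the 4 groups, with each point 1 library coloured by library set and bars for the mean and SD (n = 4). Adamts6 in the pulmonary valve shows mutants (10.6 to 15.9) below all wild-type libraries (19.3 to 35.1), and in the other 5 panels the Tbx20-poor libraries are the lowest of each group.

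Of the 5 ADAMTS-like genes, Adamtsl3 had lower means in mutants of both valves. It was 14.7, 16.6, 13.9 and 18.1 in wild-type and 6.81, 15.7, 19.05 and 4.55 in mutant aortic libraries. In pulmonary libraries it was 12.6, 20.7, 19.5 and 13.8 for wild type and 4.79, 16.4, 2.38 and 14.6 for mutants. The mean difference was log2 -0.82 (SE 0.35), lower in the mutant of 6 of 8 pairs (limma, unadjusted p = 0.0346, adjusted p = 1.00), and the wild-type values spread far less than the mutant ones. Adamtsl4, which binds fibrillin microfibrils, lay at the low end of the table and had higher means in mutants (2.08 ± 1.72 against 3.83 ± 2.51 in the aortic, 1.70 ± 1.32 against 4.47 ± 2.68 in the pulmonary valve; n = 4 each; mean difference log2 0.78, SE 0.42). Adamtsl1 separated the Tbx20-poor libraries (4.09 to 17.8) from the other 11 (18.8 to 58.5). Adamtsl2 and Adamtsl5 ranged from 0 to 13.1 and from 0.495 to 7.05.

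Adam10 and Adam17 encode the main sheddases of the ADAM family, the first acting on Notch receptors and the second on tumour necrosis factor and ligands of the epidermal growth factor receptor. Adam10 was 55.4, 159.9, 48.5 and 185 in wild-type and 66.1, 124, 114 and 174 in mutant aortic libraries. It was 72.7, 136, 89.2 and 159 in wild-type and 49.6, 103, 111 and 146 in mutant pulmonary libraries. Genotypes overlapped, with differences of log2 0.25 (SE 0.44) and log2 -0.19 (SE 0.44) in the 2 valves, whereas all 6 muscle-low libraries (at least 136) exceeded all other 10 (at most 124). Adam17 had means of 40.9 ± 22.4 and 42.6 ± 15.8 among wild-type and mutant aortic libraries, and 37.01 ± 16.4 and 38.7 ± 15.4 among the pulmonary ones (n = 4 each). Its differences of log2 0.16 (SE 0.42) and log2 0.069 (SE 0.42) have 95% intervals reaching from -0.73 to 1.06 and from -0.83 to 0.96, so a change of up to about 2-fold was not resolved.

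Adam19 was 64.6 to 98.4 in Tbx20-poor, 191 to 320.4 in intermediate and 332 to 410.4 in muscle-low libraries. By group it averaged 242 ± 190.0 and 219.8 ± 117 in wild-type and mutant aortic valve, and 287 ± 151 and 217 ± 97.8 in pulmonary valve. Adam15 showed the same order of Tbx20-poor libraries (9.38 to 13.4) below the other 11 (36.1 to 87.3). Adam9 and Adam12 did not, with Adam12, which has been linked to muscle cell fusion, at 33.4 to 81.5 in Tbx20-poor and 19.8 to 33.7 in muscle-low libraries. Adam9 had the lowest coefficient of variation of the 47 over the 16 libraries (0.275), with values from 6.79 to 25.4. The proteolytically inactive Adam11, Adam22 and Adam23, best known from nerve cells, were all above 0 in the aortic contrast and 1 of 3 in the pulmonary one, none past the threshold. Adam22 was 8.96, 6.11, 6.82 and 14.04 in wild-type and 12.1, 14.9, 21.4 and 8.82 in mutant aortic libraries. Its pulmonary values were 6.31, 12.3, 8.11 and 2.08 for wild type and 12.7, 6.31, 16.7 and 8.03 for mutants (mean difference log2 0.63, SE 0.32, higher in the mutant of 6 of 8 pairs). The 7 measured neuronal and Schwann cell markers were also above 0 in 5 of 7 (aortic, median 0.89) and 7 of 7 (pulmonary, median 0.65), none past the threshold. They summed to 23.4 to 183 in wild-type and 87.04 to 182 in mutant aortic, and 58.6 to 99.1 and 79.6 to 502 in pulmonary libraries, and their part in the Adam22 values was not tested.

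Adam1a, best known from sperm, was 4.44, 2.40, 1.16 and 2.57 in wild-type and 0.234, 0.268, 0 and 0.494 in mutant pulmonary libraries, without overlap. In the aortic valve, where the groups overlapped, it was 0, 2.51, 0 and 1.23 in wild-type and 2.85, 2.04, 1.64 and 0.142 in mutant libraries. The pulmonary difference was log2 -1.48 (SE 0.50) (limma, unadjusted p = 0.00887, adjusted p = 1.00). The difference between the valves was log2 -2.03 (SE 0.71) (limma, unadjusted p = 0.0110, adjusted p = 1.00). These values rest on few reads, since each of the mutant pulmonary values corresponds to 4 reads or fewer. They are also uncertain because 63.7% of the Adam1a exon bases are shared with Gm42878 on the same strand and 24.04% with Mapkapk5. Adam4 and Adam8 likewise stayed at 12.1 normalised counts or less.

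Mmp2 and Mmp14 act in a chain, since the membrane-bound MMP14 activates pro-MMP2 in a complex with TIMP2. Mmp2 was 35.7, 248, 45.6 and 312 in wild-type and 66.6, 179, 154 and 256 in mutant aortic libraries. It was 60.2, 369, 165 and 268 in wild-type and 35.9, 219, 144 and 261 in mutant pulmonary libraries. The mutant was the lower of the pair in all 4 pulmonary pairs and in 2 of 4 aortic pairs, with differences of log2 -0.43 (SE 0.75) and log2 0.46 (SE 0.75) (limma, adjusted p = 1.00 each). Mmp14 was 33.8 to 50.7 in Tbx20-poor, 136 to 178 in intermediate and 163 to 287 in muscle-low libraries. Its genotype differences were log2 0.34 (SE 0.76) in the aortic and log2 -0.19 (SE 0.76) in the pulmonary valve.

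The other membrane-type genes went opposite ways across the sets. Mmp15 was 2.56 to 12.3 in Tbx20-poor and 24.2 to 59.02 in muscle-low libraries, and Mmp16 16.03 to 38.1 and 8.89 to 31.2. Mmp23 was 1.63 to 3.26 in Tbx20-poor and 13.2 to 44.3 in the other 11 libraries. Mmp12, the macrophage elastase, was 7.78 to 12.8 in muscle-low and 1.93 to 7.20 in the other 10 libraries, while the 12 macrophage markers summed to 52.9 to 127 in the former and 63.6 to 119.7 in the Tbx20-poor libraries. Mmp11, stromelysin 3, ranged from 4.07 to 50.3, and Mmp19 and Mmp28 from 1.86 to 31.1 and from 0.701 to 28.3, with genotype differences within the replicate spread.

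Of the inhibitors, Timp2 varied least between the sets and Timp3 more. Timp2 was 125, 214, 109 and 238 in wild-type and 232, 179, 172 and 215 in mutant aortic libraries (log2 0.28, SE 0.37). Its pulmonary values were 95.4, 313, 233 and 214 for wild type and 79.6, 203, 174 and 245 for mutants (log2 -0.28, SE 0.37), and the genotypes overlapped in both valves. Timp1, an inhibitor of most MMPs, was 3.92 to 14.1 in Tbx20-poor, 7.98 to 34.98 in intermediate and 20.9 to 49.5 in muscle-low libraries, with differences of log2 0.24 (SE 0.74) and log2 -0.46 (SE 0.74) between genotypes.

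Timp3, which also inhibits ADAM17 and ADAMTS5, was 136, 449, 116 and 399.9 in wild-type and 127, 201, 287 and 333 in mutant aortic libraries. It was 96.2, 358, 422 and 488 in wild-type and 124, 332, 184 and 279 in mutant pulmonary libraries. Over all 16 libraries the genotypes overlapped and the mean difference was log2 -0.24 (SE 0.37), lower in the mutant of 6 of 8 pairs. Once the 5 Tbx20-poor libraries were left out, every mutant value lay below every wild-type value in both valves and the difference was -0.68 (SE 0.18; limma, unadjusted p = 0.00231, adjusted p = 0.436). Timp3, Adamts6 and Mmp11 (3 of 47) showed this order in both valves, as did 1.16% of all tested genes, and 0 of 47 showed the opposite order, against 0.666%. Of those 11 libraries 4 of 5 wild-type ones are muscle-low and 4 of 6 mutant ones intermediate, and the median of Timp3 was 287 in intermediate and 379 in muscle-low libraries, so genotype and library set move together here too. For Timp3 the mean difference was -0.46 (SE 0.17) in the 6 muscle-low libraries and 0.29 (SE 0.38) in the other 10. In those 10 the wild-type aortic libraries are all Tbx20-poor and 2 mutant aortic ones are intermediate. Some 21.3% of the Timp3 exon bases overlap Syn3 on the other strand.

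The ratio of the Mmp2 to the Timp2 value was 0.285 to 0.631 in Tbx20-poor, 0.710 to 1.08 in intermediate and 1.07 to 1.31 in muscle-low libraries. The Mmp14 to Timp2 ratio was 0.150 to 0.467, 0.674 to 0.993 and 0.740 to 1.203 in the same sets. In both, the Tbx20-poor libraries lay below all others, and each group contained both low and high ratios.

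**Figure D5:**
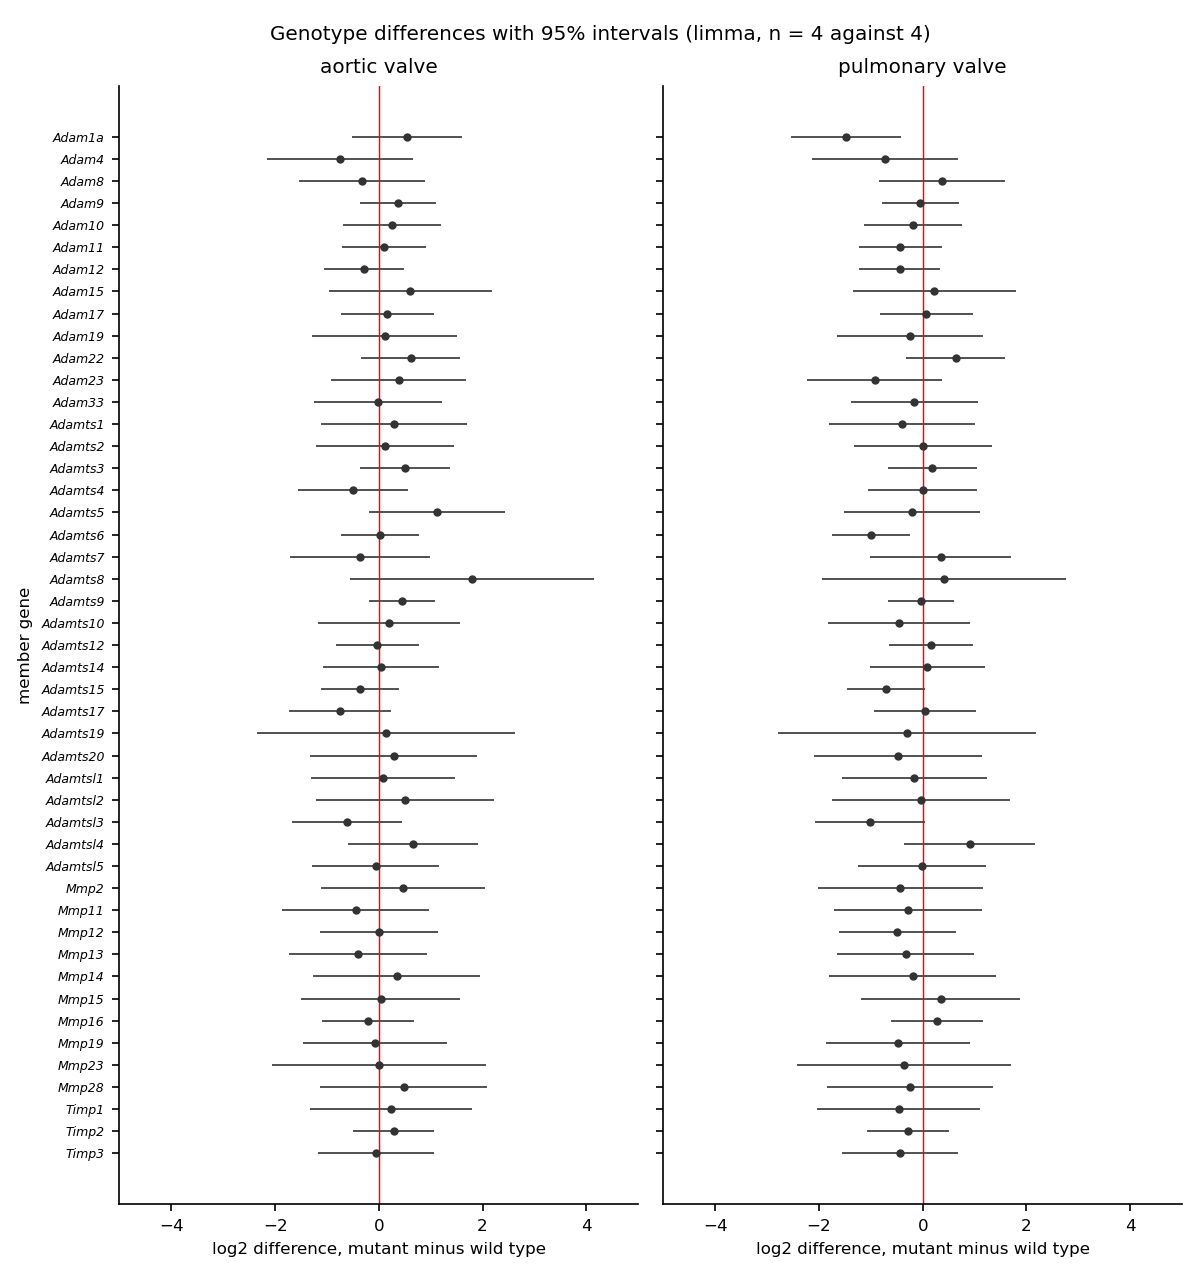
Log2 difference, mutant minus wild type, of each of the 47 genes in the aortic (left) and pulmonary valve (right), with points for the limma estimate and lines for the 95% interval (n = 4 against 4 libraries). All aortic intervals include 0, and in the pulmonary valve those of Adam1a and Adamts6 lie below 0 before any adjustment over genes.

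Over all 47 genes, none passed the adjusted threshold of 0.05 in any of the 5 contrasts with limma, where 0% of the 13963 tested genes passed, and none did with edgeR or DESeq2. In the aortic valve 0 of 47 had an unadjusted limma p under 0.05, against 1.4% of all tested genes, and also 0 with edgeR and with DESeq2. In the pulmonary valve 2 did, Adam1a and Adamts6, both lower in mutants, against 3.13% (2 with edgeR, 3 with DESeq2). The mean over both valves gave 2, Adamtsl3 and Adamts15, against 2.79% (1 with edgeR, 2 with DESeq2). The interaction gave 1, Adam1a, against 1.89% (2 and 3), and the difference between the valves 1, Adamts17, against 0.337% (1 and 1). The counts depended on the libraries and the design. In the aortic valve 2 members, Adamts5 and Adamts8, had an unadjusted p under 0.05 with litter as a replicate block, against 353 of 13963 genes. Without the Tbx20-poor libraries 8 of 47 did, against 582 of 13863 genes. None of these members passed the adjusted threshold in those fits. When the Tbx20-poor libraries are left out, both wild-type aortic libraries are muscle-low and 2 mutant aortic ones are intermediate. Genotype and library set therefore move together in that count. In the aortic valve no gene of the 47 had all 4 mutant libraries above all 4 wild-type ones or all below, against 0.759% and 0.824% of all tested genes. In the pulmonary valve 0 lay above and 2, Adam1a and Adamts6, below, against 0.938% and 1.05%.

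The aortic differences were above 0 for 31 of 47 genes, with a median of 0.11, and the pulmonary ones for 15 of 47, with a median of -0.20. Over all tested genes the medians were 0.020 and 0.0087, with 52.8% and 50.9% above 0. The difference between the valves in the genotype effect had a median of -0.38 over the 47 genes against -0.018 over all genes, and 33 of 47 lay below 0. That median was 0.011 without the 5 Tbx20-poor libraries, -0.010 in the 6 muscle-low libraries and -0.052 without wild-type aortic replicate 3 alone. The direction in the aortic valve depended on which libraries were used: without the 5 Tbx20-poor libraries 13 of 47 lay above 0 with a median of -0.26, and with the 10 libraries high in muscle markers 39 of 47 with a median of 0.67. Genotype and library set move together in both subsets, which share 2 intermediate mutant aortic libraries. The wild-type aortic libraries are all muscle-low in the first and all Tbx20-poor in the second. Leaving out 1 aortic library moved the aortic median from -0.12 (without wild-type aortic replicate 1 or 3) to 0.42 (without mutant aortic replicate 1). With edgeR on the recovered reads 25 of 47 lay above 0 in the aortic valve, and 27 after quantile normalisation. In the pulmonary valve the median was -0.22 without the Tbx20-poor libraries, -0.0061 with the muscle marker mean as a covariate and 0.046 with the 10 libraries high in muscle markers.

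Genes that work with these enzymes showed the same lack of calls. Of 18 measured substrates and partners, such as Vcan, its link protein Hapln1, fibrillins and fibrillar collagens, 14 were above 0 in the aortic and 4 in the pulmonary contrast, none past the threshold, with medians of 0.28 and -0.29. The smallest p there belonged to Ncan, the brain proteoglycan neurocan, at log2 1.02 (SE 0.89) and log2 1.204 (SE 0.89). Of 19 measured activators, inhibitors and clearance receptors, 13 were above 0 in the aortic and 9 in the pulmonary contrast, with medians of 0.13 and -0.035 and none past the threshold. Pcsk6, a proprotein convertase, was 2.39, 2.54, 1.85 and 2.20 in wild-type and 4.56, 6.84, 4.20 and 6.18 in mutant pulmonary libraries, without overlap (log2 0.97, SE 0.43; limma, unadjusted p = 0.0379, adjusted p = 1.00). In the aortic valve its difference was log2 -0.70 (SE 0.43). The lists of substrates and of activators were also higher outside the Tbx20-poor libraries, in 14 of 18 and 16 of 19 genes, with median log2 differences of 1.99 and 1.09.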

How the data were processed

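As deposited, the values are a signal per gene that the authors normalised, for 13964 genes in 16 libraries. Per the submitters' processing notes, CASAVA 1.8.2, cutadapt 1.6, FastQC and RSEM 1.2.3 were used with genome build GRCm38. Per the labels' protocols, RNA from PicoPure columns was amplified with an Ovation kit before TruSeq library preparation. The sources used here do not give the authors' filter, normalisation or annotation. Within each library the deposited signal values were whole multiples of the value of a single read (100% whole at a tolerance of 0.05 read), so depth was recovered: 4.56 to 8.68 M reads, with a median of 7.37 M. The values are called normalised counts here.

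Symbols were matched for 13780 of 13964 Ensembl identifiers. limma 3.58.1 (R 4.3.3) was fitted to log2(value + 1) in 1 model over the 4 groups with a mean-variance trend, for the 13963 genes that reached 1 normalised count in 4 libraries or more, and p-values were adjusted by the Benjamini-Hochberg method (threshold 0.05). The model was tested on simulated data. Alternatives were a pseudocount of 0.5, no filter, quantile normalisation, edgeR 4.0.16 and DESeq2 1.42.0 on the recovered reads, litter as a replicate block, a covariate for the mean of the skeletal muscle markers, the 6 libraries low or the 10 high in these markers alone, and each library left out in turn. Leaving out the 5 libraries lowest in Tbx20 was chosen after seeing the data. P-values measure the spread between libraries.

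Labels give the litters. The correlation of the deviations from the group means within a litter pair for replicates 1 to 4 was 0.48, 0.011, 0.205 and 0.64 for aortic and 0.49, -0.035, 0.066 and 0.45 for pulmonary pairs. Replicates of a group differed beyond sampling noise, with a chi-square per gene of at least 24.1 over 24 pairs. Level per kb used the merged exons of GENCODE M21.

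The members and the gene lists were chosen with earlier results of these data known. Genes were named by rule if they are the 4 versican-cleaving genes, the Timp genes, Adam10, Adam17, Mmp2 or Mmp14, or are among the 8 highest per length, the 3 with the smallest p in each direction and contrast, or those without overlap between libraries low in muscle markers and the others, or held a library far from the rest of its group. Of the partner lists, at most 4 genes per contrast were eligible. Other members were named after their values were seen.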

Additional observations from a re-analysis of the deposited data

Results flagged for a closer look

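In 4 cases a single library lay far from the other 3 of its group by Dixon's test, out of 112 groups of 4 libraries tested over the 27 members named by rule and Jag1. At 1 in 20, about 5.6 of 112 are expected when each group is 4 draws from a single normal distribution. The groups here mix library sets, so that rate need not hold and the number is not compared with chance. Adam4 was 6.67 normalised counts in wild-type aortic replicate 4 and 3.13 to 3.67 in the others. Adamtsl4 was 0.468 in mutant pulmonary replicate 1, a Tbx20-poor library, and 5.60 to 6.18 in the others. Mmp19, a secreted MMP, was 21.4 in wild-type pulmonary replicate 4 against 10.4 to 10.7, and 31.1 in mutant pulmonary replicate 3 against 4.43 to 8.52.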

How the results depend on the processing

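No member passed the adjusted threshold in any setting, and the smallest adjusted limma p was 0.244 (Adamts8, aortic valve, the 6 muscle-low libraries, where 45 of 47 members passed the filter). Over 36 differences of single genes, 30 of 936 alternative values had the opposite sign and 906 kept it. Most of the 36 were chosen by their small p in these same data. Many alternatives, such as leaving out 1 library, change the fit little, so the number that kept the sign is not a separate test. The cause of the reversals was not tested. Over all genes tested, the number past the threshold in place of 0 was 5 aortic, 6 pulmonary, 7 mean and 1 interaction in the 6 muscle-low libraries, 3 aortic, 2 pulmonary and 3 mean in the other 10, and 2 pulmonary and 5 mean with DESeq2. It was 2 for the mean with the muscle marker covariate, and with litter as a replicate block it was 1 for the mean, while the pairing added no call among the members. In the 6 muscle-low libraries each valve has 1 mutant and 2 wild-type libraries, so spread between mutants is not measured in that fit. The calls made there are therefore not read as effects of genotype. Leaving out 1 library gave 0 to 2 aortic and 0 to 3 mean calls, the highest without wild-type aortic replicate 4.

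In the 6 muscle-low libraries the reversed differences were 0.069 for Adam1a (interaction), 0.53 for Adam4 (aortic), -0.11 for Adamts1 (aortic), 0.11 for Adamts9 (pulmonary), -0.92 for Mmp16 (pulmonary) and -0.21 for Mmp19 (valve). In the 10 libraries high in muscle markers they were 0.25 for Adamts15 (aortic), and in the pulmonary valve 0.23 for Adamts1, 0.33 for Adamts5 and 0.022 for Adamts9. The covariate gave 0.067 for Adamts5 and 0.022 for Adamts9 (pulmonary). Without the Tbx20-poor libraries they were -0.0073 for Adam8 (interaction), -0.72 for Adamts1 (aortic), -0.025 for Mmp16 (pulmonary), -0.21 for Mmp19 and -0.030 for Mmp2 (valve). Adamts1 in the aortic valve was -0.071 with edgeR and -0.065 with DESeq2. Leaving out 1 library gave -0.14 to 0.78 for Adamts1 (aortic), -0.087 to 0.67 for Adamts20 (valve), and in the pulmonary valve -0.74 to 0.14 for Adamts5, -0.21 to 0.075 for Adamts9 and -0.037 to 0.62 for Mmp16. Depth limits the groups with few reads, such as Adam1a in mutant pulmonary libraries, at 4 reads or fewer each.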
